A study of Homo sapiens with 18 samples.

Results

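The genes of the ACAT1 locus on chromosome 11q22 were followed through RNA-seq of 18 libraries. They are ACAT1, its antisense gene RP11-144G7.2, and CUL5, NPAT, ATM and DDX10, which were chosen by name and position as 6 of the 39496 gene rows in the deposited tables. The libraries came from UM-UC-3 and T24, established human bladder cancer (BLCA) cell lines, both given as wild type in the labels. Each line was transfected with a negative control siRNA (siNC) or with siACAT1-1 or siACAT1-2, siRNAs directed at ACAT1. The sample titles give 3 biological replicates per group. The siRNA dose and the hours between transfection and harvest are not given in the labels, and the sequences of the siRNAs were not used here. All comparisons of a siRNA with siNC in a cell line share the same 3 siNC libraries.

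ACAT1 is the mitochondrial acetyl-CoA acetyltransferase, which acts in the use of ketone bodies and in the last step of isoleucine breakdown. An antisense gene is transcribed from the opposite strand over part of another gene, and only strand-aware counting can separate the reads of such a pair where their exons coincide. CUL5 is the scaffold of a cullin-RING ubiquitin ligase, NPAT activates the transcription of replication-dependent histone genes, ATM is the kinase that signals DNA double-strand breaks, and DDX10 is an RNA helicase of ribosome biogenesis. NPAT and ATM are a textbook head-to-head pair that start from a shared promoter region and are transcribed away from each other.

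The positions below are those of the deposited count table, whose build is GRCh38. On chromosome 11, CUL5 runs from 108008733 to 108107776 on the plus strand with 20 exon blocks. RP11-144G7.2 runs from 108105074 to 108121684 on the minus strand with 4 exons, which are identical to the 4 exons of ENSG00000255467 in GENCODE v44. ACAT1 runs from 108121516 to 108147776 on the plus strand with 16 exon blocks. Then follow NPAT from 108157215 to 108222642 on the minus strand, ATM from 108222484 to 108369102 on the plus strand and DDX10 from 108665025 to 108940930 on the plus strand. The gap between the end of CUL5 and the start of ACAT1 is 13739 bases, and RP11-144G7.2 bridges it, overlapping both genes. Of its 964 exon bases, 163 (16.9%) lie in the first exon of ACAT1 and 451 (46.8%) in exons of CUL5, so that 350 (36.3%) lie in no exon of either. The exons of RP11-144G7.2 that lie in CUL5 are exon 3, with 98 bases, and exon 4, with 353 bases, and both fall wholly inside CUL5 exons. Its exon 1, from 108121296 to 108121684, covers the start of ACAT1, with 220 of its 389 bases upstream of that start. NPAT and ATM share 143 exon bases, and ATM ends 295922 bases before DDX10 begins.

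**Figure D1:**
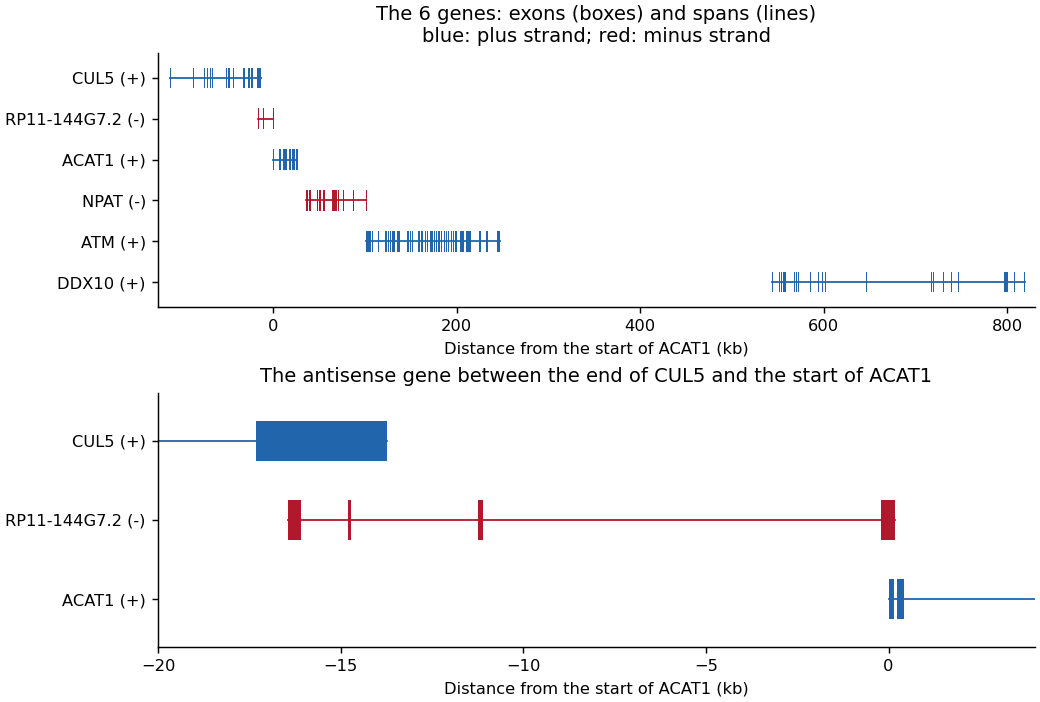
The upper panel draws the exons (boxes) and spans (lines) of the 6 genes against distance from the start of ACAT1 in kb, with plus-strand genes in blue and minus-strand genes in red. The lower panel enlarges the antisense gene, whose left-hand exons lie under the last exon of CUL5 and whose right-hand exon covers the start of ACAT1.

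The start regions of ACAT1 and of the NPAT and ATM pair are printed because each is read from both strands. They are RefSeq promoter windows on GRCh38.p14, from 250 bases before to 50 bases after the RefSeq start, and all 3 matched the genome of that build at their coordinates. The RefSeq start is not the start of the count table given above, and the ATM window lies wholly after the latter. The ACAT1 window is chr11:108121317-108121616 on the plus strand, and all 300 of its bases lie opposite exon 1 of RP11-144G7.2. Capitals in it mark the 101 bases that are in exons of both genes. The NPAT window is chr11:108222589-108222888 on the minus strand and the ATM window is chr11:108222817-108223116 on the plus strand. Capitals in these mark the 72 bases that both windows hold, on opposite strands.
ACAT1: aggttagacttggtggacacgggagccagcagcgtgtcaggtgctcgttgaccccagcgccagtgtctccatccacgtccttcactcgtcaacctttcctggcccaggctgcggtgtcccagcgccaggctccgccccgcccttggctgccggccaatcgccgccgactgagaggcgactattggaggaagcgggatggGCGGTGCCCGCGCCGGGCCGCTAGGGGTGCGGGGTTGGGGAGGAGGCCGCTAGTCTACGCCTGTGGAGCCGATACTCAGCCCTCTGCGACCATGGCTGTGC
NPAT: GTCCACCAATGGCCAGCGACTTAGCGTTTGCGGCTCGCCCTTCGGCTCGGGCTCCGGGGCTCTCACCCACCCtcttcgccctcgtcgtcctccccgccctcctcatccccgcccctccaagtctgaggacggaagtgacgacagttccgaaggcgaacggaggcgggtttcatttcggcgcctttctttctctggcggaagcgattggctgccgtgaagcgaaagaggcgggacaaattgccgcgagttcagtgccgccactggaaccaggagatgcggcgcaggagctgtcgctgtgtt
ATM: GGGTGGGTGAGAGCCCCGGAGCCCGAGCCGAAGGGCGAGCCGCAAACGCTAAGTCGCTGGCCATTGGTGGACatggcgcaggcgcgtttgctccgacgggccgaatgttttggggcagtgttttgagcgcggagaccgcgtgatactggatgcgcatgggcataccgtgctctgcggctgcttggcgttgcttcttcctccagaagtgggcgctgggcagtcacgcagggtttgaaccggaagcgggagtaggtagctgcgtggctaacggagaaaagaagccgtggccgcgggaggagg
RP11-144G7.2 has no window in that table, so 5 of the 6 genes were matched. The GC box letters GGGCGG, searched on both strands, were found 3 times in the ACAT1 window, 2 times in those of CUL5 and NPAT, 1 time in that of DDX10 and 0 times in that of ATM, and 44.6% of 27305 RefSeq windows hold them. The CCAAT letters were found 2 times in the windows of ACAT1 and NPAT, 1 time in that of ATM, 3 times in that of DDX10 and 0 times in that of CUL5 (35.7% of all windows). The core letters GCATGCGC of the NRF1 motif stood 3 times in the DDX10 window and in none of the other 4, against 3.27% of all windows.

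Expression is given as the deposited RPKM, which is reads per kilobase of exon scaled to the total of reads in the library, so that genes can be compared per length. The libraries held 25163490 to 34417230 counted reads (median 28613163). Epithelial and mesenchymal markers of the cell lines were checked in siNC. KRT8 was 35.97 to 45.3 RPKM in UM-UC-3 and 117 to 324 RPKM in T24, VIM was 249 to 306 and 179 to 271 RPKM, KRT18 was 127 to 161 and 159 to 293 RPKM, KRT7 was 2.27 to 6.38 and 139.9 to 371 RPKM, and CDH2 was 3.89 to 4.15 and 8.25 to 14.96 RPKM, while CDH1 was at 0 in all 6 siNC libraries and EPCAM was at most 0.103 RPKM in UM-UC-3. The leukocyte, endothelial, liver and muscle markers PTPRC, PECAM1, ALB and DES were at or below 0.0668 RPKM in siNC. Of the 11 markers 7 were tested, without and with the replicate number as a block, as described below. Over the mean of the 4 comparisons with siNC 0 were called without the block (0.223% of all genes), and 1, PECAM1, was at an unadjusted edgeR p under 0.05. With the block, where 12.4% of all genes were called in either direction, 4 markers were lower. These were KRT8 at -0.19, KRT18 at -0.31, KRT7 at -0.33 and CDH2 at -0.26 on the log2 scale. Their part in the results below was not tested. In bulk RNA, fewer cells expressing a gene and less RNA per cell cannot be told apart.

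With siNC, DDX10 had the highest level of the 6 genes in both lines, at 60.4 ± 6.62 RPKM (SD, n = 3) in UM-UC-3 and 69.0 ± 17.1 RPKM (SD, n = 3) in T24. ACAT1 followed at 46.0 ± 1.68 RPKM in UM-UC-3 and 16.2 ± 1.40 RPKM in T24 (SD, n = 3). The antisense gene came next at 18.1 ± 0.752 RPKM in UM-UC-3 and 7.67 ± 1.25 RPKM in T24 (SD, n = 3), above CUL5 at 9.86 ± 1.12 and 5.07 ± 0.795 RPKM (SD, n = 3). In UM-UC-3, ATM (4.51 ± 0.393 RPKM) was above NPAT (2.05 ± 0.404 RPKM; SD, n = 3). In T24, NPAT (1.75 ± 0.140 RPKM) and ATM (1.56 ± 0.107 RPKM; SD, n = 3) were neighbours whose ranges met, with the lowest NPAT library and the highest ATM library both at 1.65 RPKM. No other neighbours in either order overlapped.

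**Figure D2:**
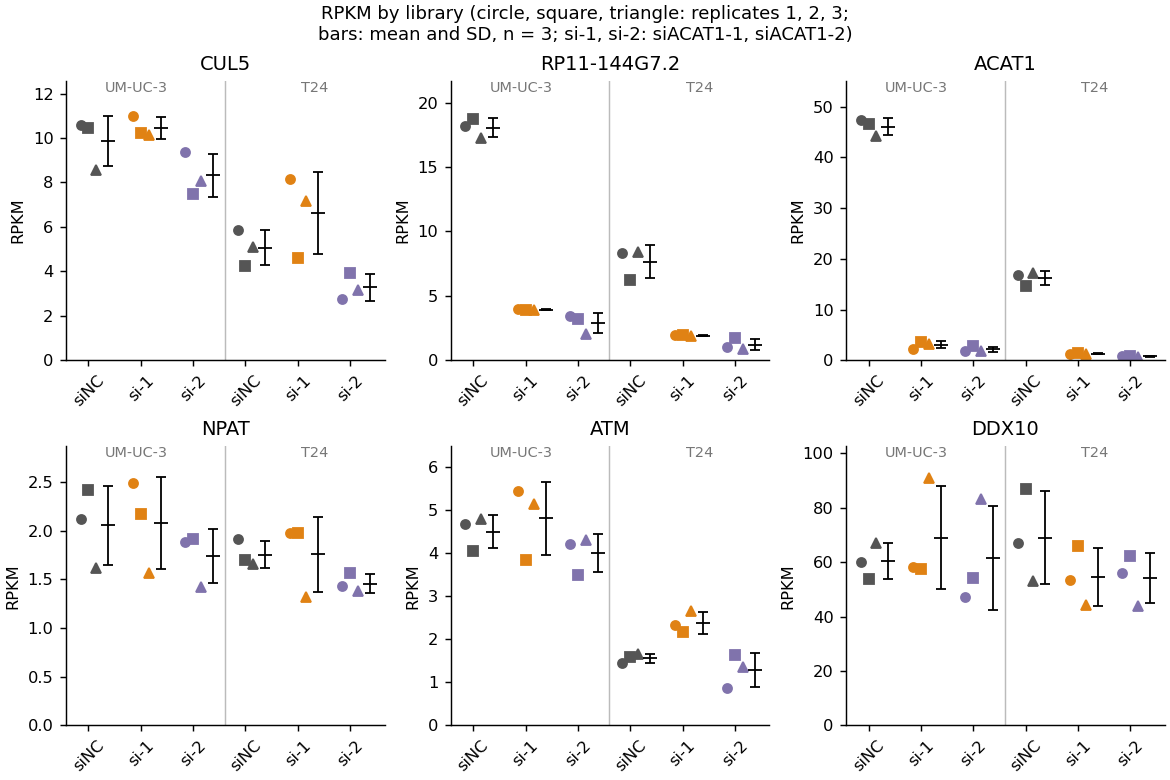
Each panel plots the RPKM of 1 gene in the 18 libraries, with the replicate number as the symbol and the mean and SD (n = 3) of each group beside it. ACAT1 and RP11-144G7.2 fall in every siACAT1 library, and DDX10 is high in replicate 3 of UM-UC-3 and in replicate 2 of T24 whatever the siRNA.

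After transfection with either ACAT1 siRNA, 2 of the 6 genes were lower in both lines, ACAT1 and its antisense gene, and the call was made by edgeR's quasi-likelihood test at an adjusted p under 0.05 (Benjamini-Hochberg over the 20144 genes that passed the filter on low counts, which all 6 genes passed). These 2 were called in each of the 4 comparisons with siNC. Of all genes tested, 0.00993% were called in UM-UC-3 for siACAT1-1 and 0.0546% for siACAT1-2, 0.124% in T24 for siACAT1-1 and 0.268% for siACAT1-2, and 0.223% over the mean of the 4 comparisons. CUL5, NPAT, ATM and DDX10 were not called in any of these 5 contrasts. A second model held the replicate number within each cell line as a block, since libraries with the same number deviated together. In UM-UC-3 it called 2 of the 6 genes for siACAT1-1 (3.06% of all genes) and 2 for siACAT1-2 (1.36%), in T24 it called 3 for siACAT1-1 (13.9%) and 3 for siACAT1-2 (8.48%), and 2 over the mean of the 4 comparisons (12.4%). The added genes were ATM with siACAT1-1 and CUL5 with siACAT1-2, both in T24.

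RP11-144G7.2 fell in each library that received an ACAT1 siRNA. In UM-UC-3 it was 18.2, 18.8 and 17.3 RPKM in siNC replicates 1, 2 and 3, against 3.97, 3.92 and 3.87 RPKM with siACAT1-1 and 3.45, 3.22 and 2.00 RPKM with siACAT1-2. In T24 it was 8.35, 6.22 and 8.44 RPKM with siNC, 1.95, 1.93 and 1.86 RPKM with siACAT1-1 and 1.04, 1.69 and 0.882 RPKM with siACAT1-2. The siACAT1 groups lay below the siNC range in both lines and did not overlap it, and the coefficient of variation over the 3 libraries of siACAT1-1 was 1.32% in UM-UC-3 and 2.68% in T24. In UM-UC-3 the mean level was 21.7% of siNC for siACAT1-1 and 16.0% for siACAT1-2, and in T24 24.9% and 15.7%. In UM-UC-3 the log2 fold change was -2.21 for siACAT1-1 (SE 0.25, 95% interval -2.73 to -1.68, edgeR adjusted p = 0.000859) and -2.68 for siACAT1-2 (SE 0.25, 95% interval -3.21 to -2.15, edgeR adjusted p = 7.3e-05). In T24 it was -1.997 with siACAT1-1 (SE 0.25, -2.53 to -1.46, edgeR adjusted p = 0.00458) and -2.67 with siACAT1-2 (SE 0.26, -3.22 to -2.12, edgeR adjusted p = 0.000127). Over the 4 comparisons the mean was -2.39 (SE 0.14, edgeR adjusted p = 6.2e-08), and the same-numbered siNC library was the higher one in 12 of 12 pairs.

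ACAT1 itself, the targeted gene, fell further than its antisense gene. Its mean level was 6.62% and 4.69% of siNC in UM-UC-3 and 8.00% and 4.90% in T24, with siACAT1-1 and siACAT1-2 in turn. The order of the pair was turned, with RP11-144G7.2 below ACAT1 per length in all 6 siNC libraries and above it in 12 of 12 siACAT1 libraries. The ratio of antisense reads to ACAT1 reads was 6.78% ± 0.169 with siNC in UM-UC-3, 23.2% ± 6.31 with siACAT1-1 and 23.7% ± 7.69 with siACAT1-2 (SD, n = 3). In T24 the ratio was 8.15% ± 0.673 with siNC, 25.7% ± 2.56 with siACAT1-1 and 25.8% ± 5.35 with siACAT1-2 (SD, n = 3). The log2 ratio of antisense to ACAT1 reads was 1.75 higher in the 6 siACAT1 libraries than in the 3 siNC libraries of UM-UC-3, a 3.36-fold difference, and 1.65 higher in T24, a 3.14-fold difference. Each difference had p = 0.0238 in an exact two-sided permutation test, the smallest p that the 84 arrangements allow, and an adjusted p of 0.0476 over the 4 permutation tests of read ratios. Without 1 of the siNC libraries the smallest p allowed was 0.0714, with differences from 1.58 to 1.77 for the 6 such libraries over both lines. ACAT1 is the target of the siRNAs, so this ratio rises for any gene that falls less than ACAT1. The test therefore adds nothing on the antisense gene beyond its smaller fall. It also took both siRNAs together and did not pair the replicate numbers.

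Because the exons of the antisense gene coincide with those of ACAT1 and CUL5 over part of their length, its reads were set beside the mean read rates of both genes. At the mean rate per exon base of ACAT1, the 163 shared bases would hold 228 reads per siNC library of UM-UC-3, where RP11-144G7.2 had 530 reads on average. The ACAT1 rate thus equalled 41.9% to 44.1% of the antisense reads in siNC of UM-UC-3, and 9.60% to 15.5% with siACAT1-1. At the mean rate of CUL5, the 451 shared bases would hold 119 to 151 reads in siNC of UM-UC-3 (23.2% to 27.2% of the antisense reads) and 54.1 to 90.6 reads in siNC of T24 (28.4% to 32.7%). In the siACAT1 libraries the CUL5 rate stood for more reads than the antisense gene had. RP11-144G7.2 had 108 to 116 reads with siACAT1-1 in UM-UC-3 against 136 to 141 at the CUL5 rate, 55 to 95 against 96.6 to 121 with siACAT1-2, 45 to 56 against 62.5 to 99.4 with siACAT1-1 in T24, and 27 to 46 against 36.0 to 49.97 with siACAT1-2. The antisense gene was below the CUL5 rate in 12 of 12 siACAT1 libraries. The library kit marks strand, but the strand setting of the counting and the treatment of reads that fall on 2 genes are not given in the sources used here, so how far reads of ACAT1 or CUL5 entered the antisense count was not tested.

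**Figure D3:**
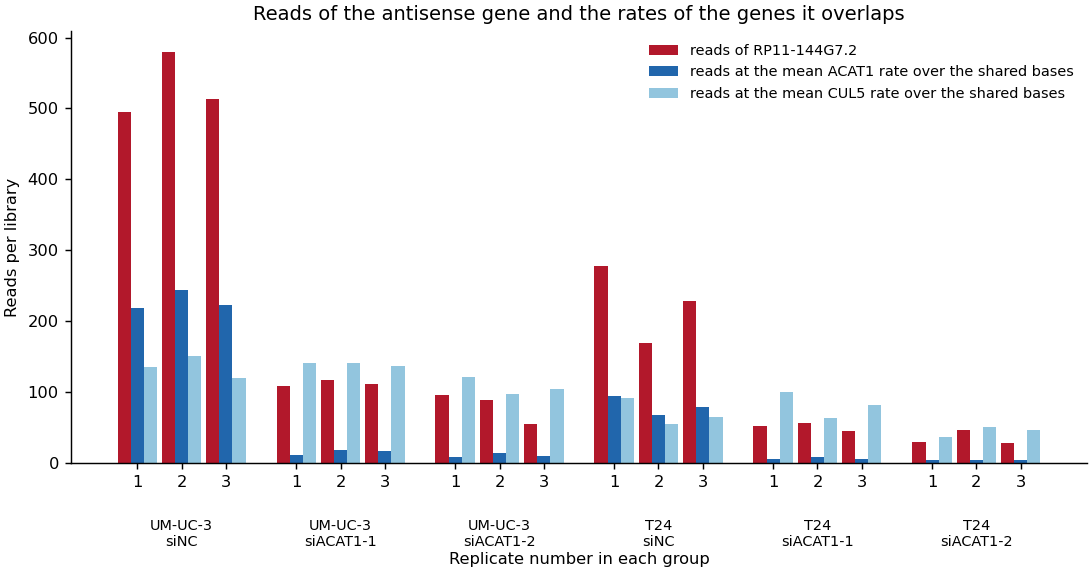
For each library the bars give the reads of RP11-144G7.2 and the reads that the mean rates of ACAT1 and CUL5 per exon base would place on the bases each shares with it. In siNC the antisense count stands above both rates, and in the 12 siACAT1 libraries it stands above the ACAT1 rate and below the CUL5 rate.

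When the ACAT1 rate over the shared bases was subtracted from the antisense reads, the fold changes shrank and kept their direction. The subtraction takes the reads of ACAT1 as even over its exon bases, which was not tested. The CUL5 rate was not subtracted. The fold changes below are therefore not those of an antisense count known to be free of reads of ACAT1 and CUL5. The mean over the 4 comparisons became -1.85 (SE 0.16, edgeR adjusted p = 1.7e-05). For siACAT1-1 in UM-UC-3 it went from -2.21 to -1.60 and no longer passed (edgeR adjusted p = 0.169), although it passed with the replicate block added (-1.60, edgeR adjusted p = 0.000827). In the other 3 comparisons the antisense gene stayed called after the subtraction, at -2.07 with siACAT1-2 in UM-UC-3, -1.53 with siACAT1-1 in T24 and -2.20 with siACAT1-2 in T24. With T24 fitted alone, the unsubtracted fall with siACAT1-1 was of the same size (-1.99) and did not pass (edgeR adjusted p = 0.273).

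CUL5, whose last exon lies opposite exons 3 and 4 of the antisense gene, was not called against siNC without the block. In UM-UC-3 it was 10.6, 10.4 and 8.57 RPKM in siNC replicates 1, 2 and 3, 11.01, 10.2 and 10.1 RPKM with siACAT1-1 and 9.39, 7.47 and 8.08 RPKM with siACAT1-2. The T24 levels were 5.84, 4.25 and 5.12 RPKM with siNC, 8.14, 4.60 and 7.14 RPKM with siACAT1-1 and 2.75, 3.93 and 3.17 RPKM with siACAT1-2. The siACAT1-1 group overlapped siNC in both lines, whereas siACAT1-2 lay below siNC in T24 and overlapped it in UM-UC-3. The log2 fold change with siACAT1-2 in T24 was -0.63 (SE 0.21, 95% interval -1.07 to -0.18, edgeR adjusted p = 0.347), and with the replicate block -0.59 (SE 0.17, edgeR adjusted p = 0.0312). With siACAT1-1 it was 0.40 in T24 (95% interval -0.05 to 0.84, edgeR adjusted p = 0.493), so that the mean over the 4 comparisons was -0.11 (95% interval -0.38 to 0.16).

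NPAT, the activator of histone genes, had 249 to 585 reads per library and was not called in any comparison with siNC. In UM-UC-3 it was 2.12, 2.42 and 1.62 RPKM with siNC, 2.49, 2.17 and 1.56 RPKM with siACAT1-1 and 1.89, 1.92 and 1.42 RPKM with siACAT1-2. Levels in T24 were 1.91, 1.70 and 1.65 RPKM with siNC, 1.98, 1.98 and 1.31 RPKM with siACAT1-1 and 1.43, 1.56 and 1.37 RPKM with siACAT1-2. Replicate 3 was the lowest library of each group in both lines, and only siACAT1-2 in T24 lay outside the siNC range. The mean log2 fold change was -0.13 (SE 0.14, 95% interval -0.42 to 0.16, edgeR adjusted p = 0.800), and with the replicate block -0.13 (SE 0.08, 95% interval -0.30 to 0.04, edgeR adjusted p = 0.332).

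ATM, whose span overlaps that of NPAT by 159 bases on the other strand, was higher with siACAT1-1 in T24 than with siNC by the model with the block. In T24 it was 1.44, 1.58 and 1.65 RPKM with siNC, 2.33, 2.16 and 2.67 RPKM with siACAT1-1 and 0.864, 1.65 and 1.36 RPKM with siACAT1-2. The siACAT1-1 libraries lay above the siNC range, while those of siACAT1-2 overlapped it. The log2 fold change with siACAT1-1 was 0.63 (SE 0.18, 95% interval 0.25 to 1.01, edgeR adjusted p = 0.163), and with the replicate block 0.63 (SE 0.13, edgeR adjusted p = 0.00417). In UM-UC-3 ATM was 4.67, 4.06 and 4.79 RPKM with siNC, 5.45, 3.85 and 5.14 RPKM with siACAT1-1 and 4.22, 3.49 and 4.32 RPKM with siACAT1-2, and these groups overlapped. The ratio of ATM to NPAT reads was 6.76 ± 1.90 with siNC in UM-UC-3, 7.17 ± 2.33 with siACAT1-1 and 7.01 ± 1.84 with siACAT1-2 (SD, n = 3). In T24 it was 2.65 ± 0.377, 4.25 ± 1.53 and 2.62 ± 0.723 in the same order (SD, n = 3). Its log2 value in the 6 siACAT1 libraries was 0.07 above siNC in UM-UC-3 (exact permutation p = 0.738, adjusted p = 0.738) and 0.29 above it in T24 (exact permutation p = 0.476, adjusted p = 0.635), and the groups overlapped in both lines. Within replicate numbers the ratio was above siNC in 5 of 6 pairs in UM-UC-3 and in 4 of 6 in T24. The permutation test did not pair these numbers, and leaving out 1 library unbalances them. The unpaired difference in UM-UC-3 changed sign with single libraries. It was -0.13 without siNC replicate 2, -0.03 without siACAT1-1 replicate 3 and -0.01 without siACAT1-2 replicate 3. In T24 it ranged from 0.11 to 0.46 with 1 of the 9 libraries left out in turn.

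DDX10, the helicase at the far end of the locus, was not called in any comparison with siNC. In UM-UC-3 it was 60.1, 53.9 and 67.1 RPKM with siNC, 58.4, 57.6 and 90.9 RPKM with siACAT1-1 and 47.0, 54.1 and 83.2 RPKM with siACAT1-2. T24 had 67.0, 87.0 and 53.0 RPKM with siNC, 53.5, 65.8 and 44.4 RPKM with siACAT1-1 and 56.2, 62.1 and 43.9 RPKM with siACAT1-2. Replicate 3 was the highest library of each UM-UC-3 group, and replicate 2 was the highest and replicate 3 the lowest of each T24 group. Compared within replicate numbers, DDX10 was lower than siNC in 6 of 6 pairs in T24 (log2 differences of RPKM from -0.49 to -0.25) and in 2 of 6 in UM-UC-3. The 6 pairs of a line share its 3 siNC libraries. The share of all genes with so many pairs in the same direction was not counted, for DDX10 or for the other genes. With the block the T24 log2 fold change was -0.32 with siACAT1-1 (95% interval -0.55 to -0.08, edgeR adjusted p = 0.0646) and -0.32 with siACAT1-2 (-0.55 to -0.08, edgeR adjusted p = 0.0870), neither called. Over the 4 comparisons without the block the mean was -0.12 (SE 0.14, 95% interval -0.43 to 0.18, edgeR adjusted p = 0.837). Of the variance of DDX10 within a line, 70.7% lay with the replicate number and 10.9% with the siRNA in UM-UC-3, and 67.3% and 28.5% in T24. For ACAT1 the siRNA took 98.4% in UM-UC-3 and 99.4% in T24, for RP11-144G7.2 96.7% and 95.3%, and for CUL5 61.4% and 67.5%. For ATM the siRNA took 44.9% and the replicate number 50.5% in UM-UC-3, against 78.2% and 6.28% in T24. For NPAT the replicate number took 76.2% in UM-UC-3 and 48.9% in T24, with 19.9% and 27.8% for the siRNA. The median over all genes was 25.5% for the siRNA in both lines, and for the replicate number 38.2% in UM-UC-3 and 43.99% in T24.

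**Figure D4:**
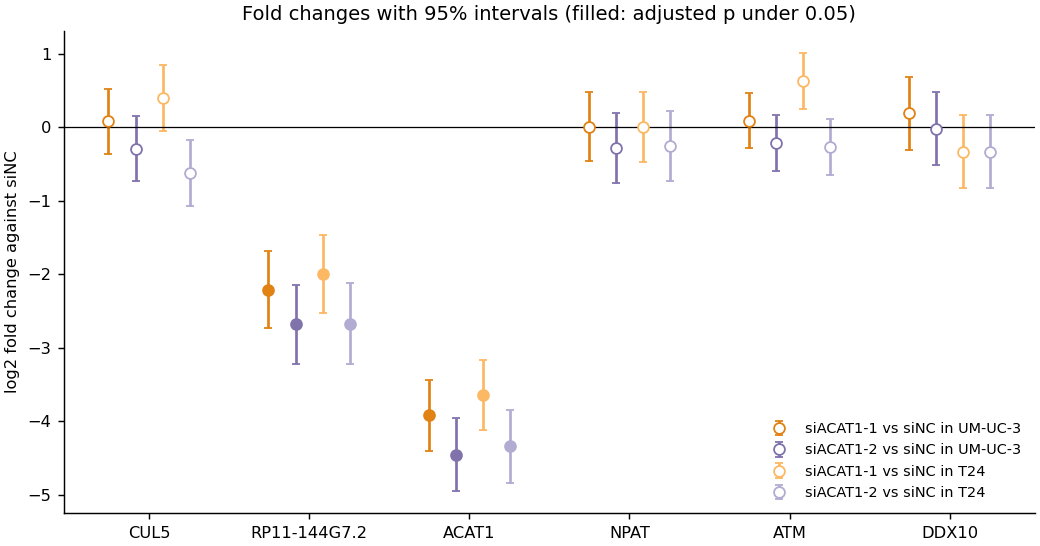
The log2 fold change against siNC (vertical axis) is plotted for the 6 genes in the 4 comparisons, with 95% intervals from edgeR and filled symbols at an adjusted p under 0.05. ACAT1 and RP11-144G7.2 lie well below 0 in all 4, with the antisense gene between -2.68 and -1.997, and the 4 other genes lie between -0.63 and 0.63.

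The siRNAs were compared with each other over both lines, as siACAT1-2 minus siACAT1-1, and 3 of the 6 genes were lower with siACAT1-2 (2.56% of all genes were called). The log2 difference was -0.62 for ACAT1 (SE 0.15, edgeR adjusted p = 0.0340), -0.70 for CUL5 (SE 0.15, edgeR adjusted p = 0.0219) and -0.60 for ATM (SE 0.13, edgeR adjusted p = 0.0200). Each of these 3 genes and RP11-144G7.2 was lower with siACAT1-2 than in the same-numbered siACAT1-1 library in 6 of 6 pairs, and NPAT and DDX10 in 5 of 6. For CUL5 the siRNA groups did not overlap in either line, and the log2 differences of the pairs ran from -1.57 to -0.23 in T24 and from -0.45 to -0.23 in UM-UC-3. The share of all genes with such pairs, or with groups that do not overlap, was not counted. RP11-144G7.2 differed by -0.57 (SE 0.18, edgeR adjusted p = 0.0984) and was called with the replicate block (-0.58, edgeR adjusted p = 0.0173), which made 4 of the 6 genes (20.6% of all genes). NPAT differed by -0.28 (95% interval -0.61 to 0.06) and DDX10 by -0.11 (-0.46 to 0.25). With the block NPAT differed by -0.26 (95% interval -0.46 to -0.07, edgeR adjusted p = 0.0538) and DDX10 by -0.11 (-0.27 to 0.06), neither of them called. The mesenchymal marker VIM was higher with siACAT1-2 in the same comparison (0.69, edgeR adjusted p = 0.0255), and with the block so were CDH2, KRT7 and KRT8, whose part in these differences was not tested. The calls of this comparison changed with single libraries left out more than those with siNC, while the differences kept their direction. With each library left out in turn they ran from -0.74 to -0.55 for ACAT1, -0.81 to -0.59 for CUL5 and -0.68 to -0.51 for ATM. With the replicate block ACAT1, CUL5 and ATM were called at edgeR adjusted p values of 0.000816, 0.000425 and 0.00019 in turn. The difference of ATM was -0.56, -0.56 and -0.60, at edgeR adjusted p values of 0.0676, 0.0711 and 0.0515, without UM-UC-3 siACAT1-1 replicate 1, UM-UC-3 siACAT1-2 replicate 2 and T24 siACAT1-1 replicate 1. Without the same 3 libraries CUL5 lost its call (-0.69, -0.66 and -0.59, edgeR adjusted p from 0.0665 to 0.0735), and it also did without T24 siACAT1-2 replicate 1 (-0.66, 0.0676) and replicate 3 (-0.68, 0.0625). ACAT1 lost its call without any 1 of 9 libraries, which were UM-UC-3 siNC replicate 1, UM-UC-3 siACAT1-1 replicates 2 and 3, UM-UC-3 siACAT1-2 replicates 1 and 3, and replicates 1 and 3 of both siRNAs in T24, with differences from -0.65 to -0.55 and edgeR adjusted p values from 0.0523 to 0.103. RP11-144G7.2 gained a call without T24 siACAT1-2 replicate 2 (-0.71, edgeR adjusted p = 0.0424).

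With siNC, 4 of the 6 genes were higher in UM-UC-3 than in T24, against 44.3% of all genes called in either direction. The log2 difference was 1.58 for ATM (SE 0.18, edgeR adjusted p = 3.3e-06), 1.55 for ACAT1 (SE 0.21, edgeR adjusted p = 1.4e-05), 1.27 for RP11-144G7.2 (SE 0.24, edgeR adjusted p = 0.000378) and 1.00 for CUL5 (SE 0.21, edgeR adjusted p = 0.00116). NPAT, the gene that shares its start region with ATM, differed by 0.27 (95% interval -0.20 to 0.74, edgeR adjusted p = 0.350). DDX10 differed by -0.15 (95% interval -0.65 to 0.35). With the replicate block, the fitted difference between the lines was that at replicate 1 and not the mean over the replicates. It was -0.39 for DDX10 (edgeR adjusted p = 0.0266), and 5 of the 6 genes were called (52.2% of all genes). These values are therefore not the same measure as those without the block. Whether the response to knockdown differed between the lines was tested as the effect in UM-UC-3 minus that in T24. No gene of the locus was called, with 0% of all genes called and 517 genes at an unadjusted p under 0.05, and with the block 0 of the 6 were called and 0.104% of all genes. The difference was -0.19 for ACAT1 (95% interval -0.73 to 0.34) and -0.11 for RP11-144G7.2 (-0.74 to 0.53).

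Within 1 Mb of ACAT1 there were 17 other gene rows on chromosome 11, of which 9 were tested. By edgeR 0 of them were called over the mean of the 4 comparisons (2 at an unadjusted p under 0.05), where their median log2 fold change was 0.23 (range -1.48 to 0.61) against -0.00126 over all genes tested. The 5 with the highest level were CWF19L2 at a mean of 15.9 RPKM over the 18 libraries, ALKBH8 at 13.3, KDELC2 at 10.4, SLC35F2 at 8.66 and C11orf65 at 1.00 RPKM. At the low end, RAB39A had 64 and ELMOD1 1195 reads in total over the 18 libraries. The median and range above, and the differences between the lines below, therefore include genes near the floor. ALKBH8, a tRNA methyltransferase whose start lies at -555.8 kb from that of ACAT1, was lower with siACAT1-2 than with siACAT1-1 (-0.54, SE 0.13, edgeR adjusted p = 0.0384), and with the block it was higher with siACAT1-1 than siNC in UM-UC-3 (0.73, edgeR adjusted p = 0.0157). C11orf65, which shares 114 exon bases with ATM on the other strand, had a log2 fold change of 0.92 with siACAT1-1 in T24 (SE 0.39, edgeR adjusted p = 0.363), and 0.98 with the block (edgeR adjusted p = 0.00344), where ATM was also called. KDELC2 was lower in the same comparison with the block (-0.54, edgeR adjusted p = 0.0118) and over the mean of the 4 comparisons (-0.30, edgeR adjusted p = 0.0189). With the block, SLC35F2 (-0.33, edgeR adjusted p = 0.0164) and C11orf65 (-0.60, edgeR adjusted p = 0.00434) were also lower with siACAT1-2 than with siACAT1-1. Of the 9, the block called 1 with siACAT1-1 in UM-UC-3 (3.06% of all genes) and 2 with siACAT1-1 in T24 (13.9%). It called 0 with siACAT1-2 in either line (1.36% and 8.48%), 1 over the mean (12.4%) and 3 between the siRNAs (20.6%). Without the block 1 was called between the siRNAs (2.56%). Between the lines with siNC, 5 of the 9 were called, ALKBH8, ELMOD1, SLC35F2, C11orf65 and KDELC2, with log2 differences from 0.61 to 4.71, all higher in UM-UC-3, beside 44.3% of all genes called.

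**Figure D5:**
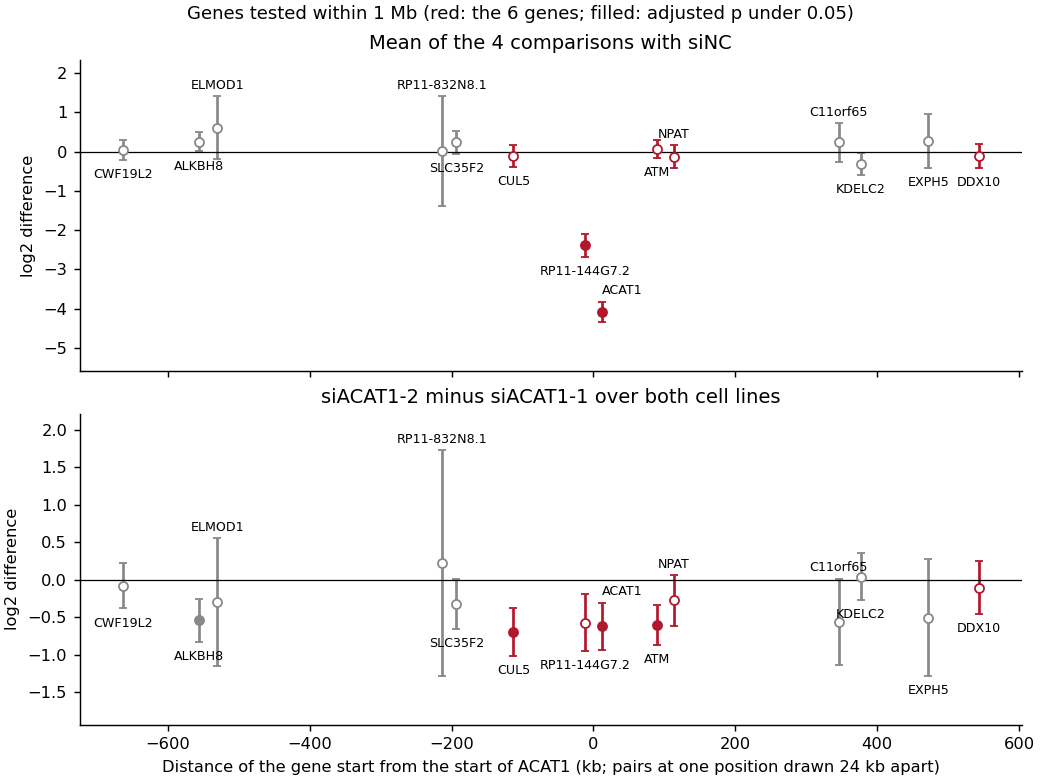
The log2 difference (vertical axis, with 95% intervals from edgeR) is plotted against the distance of each gene's start from that of ACAT1 in kb, for the mean of the 4 comparisons with siNC (upper) and for siACAT1-2 minus siACAT1-1 (lower). RAB39A, with a mean of 0.0656 RPKM, was tested and is not drawn. Only ACAT1 and RP11-144G7.2 are filled (edgeR adjusted p under 0.05) in the upper panel, while CUL5, ACAT1, ATM and ALKBH8 are filled in the lower one.

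Across the 18 libraries, after the mean of each cell line was taken off the log2 CPM, RP11-144G7.2 was the gene most like ACAT1, with r = 0.98. The next were RP11-298I3.5 (r = 0.87), SLC27A3, an acyl-CoA synthetase and fatty acid transporter (0.84), ANXA11, an annexin (0.84), and HAUS4, a subunit of the augmin complex (0.83). For RP11-144G7.2 the most like genes after ACAT1 were RP11-298I3.5 (0.86), ITGB3BP, a centromere protein (0.86), SLC27A3 (0.85) and GUSB, a lysosomal glucuronidase (0.84). Among the neighbours, CUL5 and ATM varied together most (r = 0.78), whereas NPAT and ATM, which share their start region, had r = 0.11 and ACAT1 and ATM had r = 0.01. These values describe the libraries, which share siRNA groups and replicate numbers. The siRNA group means were not taken off, so the values also carry the fold changes against siNC. Over the mean of the 4 comparisons RP11-298I3.5 (-0.98, edgeR adjusted p = 0.0048) and HAUS4 (-1.04, edgeR adjusted p = 0.0067) were called lower. SLC27A3, ANXA11, ITGB3BP and GUSB were not called without the block.

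Partners of the proteins of ACAT1, CUL5, NPAT, ATM and DDX10 were described with 5 lists of genes, and over the mean of the 4 comparisons without the block 0 of the listed genes were called by edgeR, and 0 by DESeq2. At an unadjusted edgeR p under 0.05 there were 3 genes of the ATM list and 2 of the DDX10 list, and 0 of the other 3 lists. With the block, 12.4% of all genes were called over this mean against 0.223% without it, and the counts of listed genes with the block are to be read against that share. In the ketone body and isoleucine list, 9 of 10 genes were matched and tested, with a median log2 fold change of 0.02 (all genes -0.00126). The thiolase ACAT2, a cytosolic relative of ACAT1, was at -0.30 (SE 0.18, edgeR adjusted p = 0.572) and was called with the block (-0.32, edgeR adjusted p = 0.00779). BDH2 was at 0.31 and the ketone body dehydrogenase BDH1 at -0.25, with neither of them called in either model over this mean. BDH2 (0.86, edgeR adjusted p = 0.0227) was higher and HSD17B10, another enzyme of isoleucine breakdown (-0.68, edgeR adjusted p = 0.0234), lower with siACAT1-2 than with siACAT1-1.

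In the list of the CUL5 ligase, all 12 genes were tested, with a median of -0.00377. The substrate receptor SOCS2 was at -0.50 (SE 0.29, edgeR adjusted p = 0.565) and was the 1 gene called with the block (-0.53, edgeR adjusted p = 0.00329), while PCMTD1, RNF7 and DCUN1D1 were between 0.16 and 0.19. In the list of histone gene partners of NPAT, 10 genes had a median of -0.09, and 0 were called in either model over this mean. ZNF473 was at -0.19, SLBP, the histone stem-loop binding protein, at -0.20, the U7 snRNP protein LSM11 at 0.10 and the cyclin CCNE1 at 0.02, none of them called.

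In the list of ATM signalling, 17 genes had a median of -0.07, and with the block 4 fell and 1 rose (12.4% of all genes were called). The p53 target CDKN1A was at 0.52 (SE 0.43, edgeR adjusted p = 0.722; with the block 0.60, edgeR adjusted p = 0.00978). H2AFX, the histone variant that ATM phosphorylates, was at -0.43 and MDM2, the ubiquitin ligase of p53, at -0.45, and with the block at -0.49 (edgeR adjusted p = 0.00652) and -0.46 (edgeR adjusted p = 0.00253). BRCA1 was at -0.37 and with the block at -0.38 (edgeR adjusted p = 0.0165), and MRE11A was at -0.22 with the block (edgeR adjusted p = 0.0286). In the list of small ribosomal subunit partners of DDX10, 13 genes had a median of -0.08, and with the block 2 of the 13 were called lower, a share near the 12.4% of all genes, the box C/D snoRNP proteins NOP56 (-0.34, edgeR adjusted p = 0.00303) and FBL (-0.31, edgeR adjusted p = 0.00278). Without the block these were at -0.34 and -0.31 as well, at edgeR adjusted p values of 0.408 and 0.315. UTP3 was at 0.19 and HEATR1 at -0.10, neither of them called.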

How the data were processed

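RNA was sequenced from 3 libraries in each of 6 groups. Per the labels and the paper, the authors made stranded libraries with molecular identifiers of 8 bases, and the submitters' processing notes name Trimmomatic 0.36, STAR 2.5.3 and featureCounts of Subread 1.5.1. The authors deposited raw read counts on gene exons for 39496 genes and RPKM values that the authors calculated from them. The annotation release, the strand setting, the treatment of reads on overlapping genes and the collapse of identifiers are not given in the sources used here. Paralogous or overlapping genes are uncertain for that reason.

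In R 4.3.3, the counts entered edgeR 4.0.16 (TMM, filterByExpr by group, glmQLFit and glmQLFTest) in 1 model of all 18 libraries, with Benjamini-Hochberg adjustment over 20144 genes within each of 8 contrasts. The p-values measure the spread between the replicate libraries. Intervals are at 95%. Read ratios were tested in scipy 1.17.1 with exact permutation tests. The edgeR model without the block was tested on simulated counts, for the mean of the 4 comparisons only. Those counts held no effect of the replicate number. The block, the subtraction, DESeq2 and the permutation tests were not tested on simulated data. The chi-square per degree of freedom between replicate libraries was 11.8 to 174 over 18 pairs, so none was counted as a copy of another.

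Deviations from the group means correlated in all 9 same-numbered pairs of UM-UC-3 (0.115 to 0.576) and all 9 of T24 (0.356 to 0.686). In the 18 pairs per line with different numbers, r ran from -0.545 to 0.269 in UM-UC-3 and from -0.567 to 0.210 in T24. The ranges thus overlapped in UM-UC-3 and not in T24. The medians were 0.433 for the same number and -0.110 for different numbers in UM-UC-3, and 0.524 and -0.404 in T24. The replicate numbers were taken as pairs from these values. What a number stands for is not stated in the sources used here.

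The 6 genes, the lists and the tests were chosen with earlier results of these data known. Other genes were named if they lay within 1 Mb and passed an adjusted p under 0.05 or were among the 5 with the highest RPKM, if they were among the 5 most like ACAT1 or RP11-144G7.2, or if they belonged to a list and were called in any comparison, at most 4 per list, by the size of the mean log2 fold change. HSD17B10, MRE11A and the listed genes of the siRNA comparison were named after their values were seen. Of the listed genes, 1 that the rule names is not reported here. Alternatives were RLE normalization, no filter on low counts, DESeq2 1.42.0, the replicate block, each cell line alone, each library left out in turn, and subtraction of the ACAT1 rate from the antisense reads. The subtraction with the block was added after the data were seen.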

Additional observations from a re-analysis of the deposited data

How the results depend on the processing

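The fall of RP11-144G7.2 over the 4 comparisons lay between -2.39 and -1.85 on the log2 scale under the other settings and between -2.47 and -2.33 when each library was left out. With siACAT1-1 in UM-UC-3, 1 of the 6 genes was called in place of 2 after the ACAT1 rate was subtracted from the antisense reads, which removes reads by construction. With siACAT1-1 in T24, 1 gene was called when T24 was fitted alone, from fewer libraries. With the replicate block, 1 gene of the ketone body list, 1 of the CUL5 ligase list, 5 of the ATM signalling list and 2 of the DDX10 partner list were called where 0 had been, while the share over all genes went from 0.223% to 12.4%; the cause was not tested. The block changed no call of the 6 genes other than those of ATM and CUL5 in T24, of DDX10 between the lines and of RP11-144G7.2 between the siRNAs. Between the lines, the model with the block gave the difference at replicate 1, which is not the same measure. Taken within replicate numbers, the antisense to ACAT1 ratio was higher than siNC in 6 of 6 pairs in each line and the ATM to NPAT ratio in 5 of 6 pairs in UM-UC-3 and 4 of 6 in T24.

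Leaving out each library gave 0 to 4 called genes between the siRNAs, 1.65 to 1.81 for the antisense to ACAT1 log2 ratio in UM-UC-3 and 1.58 to 1.69 in T24, and -0.13 to 0.27 for the ATM to NPAT log2 ratio in UM-UC-3. In the other comparisons the count of called genes stayed at 2 for each siRNA against siNC, 4 between the lines and 0 for the difference in response. DESeq2 also called ATM with siACAT1-1 in T24 (0.63, adjusted p = 0.0450) and RP11-144G7.2 between the siRNAs (-0.58, adjusted p = 0.0363). Depth limits the antisense gene, at 27 to 580 reads per library, NPAT, at 249 to 585, and ACAT1 in the siACAT1 libraries of T24, at 119 to 246.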
